A study of Mus musculus with 32 samples.

Results

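The comparison covered the 16 tumours labelled male in a series of 32 mouse primary melanomas, 8 ΔEcad against 8 Ecad. They are called male-labelled tumours here, because the sex-linked genes of one of them, ΔEcad tumour 2, went against its label. Tumours were taken as every sample whose labels gave male sex and one of these genotypes, and no measured value was used to choose them. All 16 carried the Tyr::NrasQ61K transgene, an inactive Cdkn2a allele (Cdkn2a-/+) and floxed Cdh1 on both alleles (Cdh1F/F). The Ecad tumours had no Cre (°/°). At that position the labels of the ΔEcad tumours read Tyr::NRAS/°, whereas the study's methods give Tyr::CreA/°, a Cre transgene under the tyrosinase promoter. This promoter is active in melanocytic cells, so skin, stroma and immune cells of a ΔEcad tumour keep an intact Cdh1. No age was given in the labels, and separate animals were not stated for each tumour, so the p-values measure the spread between these tumours. Polyadenylated RNA was sequenced, and gene counts and TPM, length-scaled transcript levels, were used.

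E-cadherin, the product of Cdh1, is the calcium-dependent adhesion molecule of epithelial cells and of melanocytes. Through it a melanocyte is held to the surrounding keratinocytes, and its cytoplasmic tail binds the catenins, which link it to actin. A fall of E-cadherin with a rise of other cadherins is a well-known feature of invasive melanoma.

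The libraries held 29451277 to 40559517 gene counts in Ecad and 28558005 to 38472411 in ΔEcad tumours. Several tumours stood apart before any comparison between genotypes. ΔEcad tumour 2 was labelled male, yet it had 6.41 TPM of Xist, the RNA of the inactive X chromosome, against 0.20 TPM or less in the other 15 tumours. Its counts for the Y-linked genes Ddx3y, Uty, Kdm5d and Eif2s3y were 0, so its sex label is in doubt. Counts over all genes, Cdh1, the genes with the smallest p and the interactions named below are also given without it. ΔEcad tumour 7 lacked the melanocytic markers of a melanoma: it had 4.98 TPM of Dct, dopachrome tautomerase of the melanin pathway, whereas Dct reached at least 6338 TPM in every Ecad tumour. The 8 melanocytic markers summed to 31.8 TPM in ΔEcad tumour 7, against 17180 to 73870 TPM in the Ecad tumours. Mitochondrial transcripts made up 0.256% of the counts of ΔEcad tumour 1 and 0.891% of those of ΔEcad tumour 2, against 1.45% to 5.48% in the Ecad group. The tumours also differed in how much skin they contained. The 10 keratinocyte markers summed to 3.26 TPM in Ecad tumour 7 and to 23575 TPM in Ecad tumour 6.

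Cdh1 (GRCm38 chromosome 8, 106603351 to 106670246) was low in the ΔEcad tumours but not absent. The 8 Ecad tumours had 25.0 TPM at the lowest, 145 TPM at the median and 282 TPM at the highest. The 8 ΔEcad tumours had 0.79, 3.29 and 65.2 TPM. Each ΔEcad tumour lay below the Ecad median, and the groups overlapped through one sample, ΔEcad tumour 3, whose 65.2 TPM of Cdh1 exceeded the 2 lowest Ecad tumours. The difference in mean log2(TPM + 1) was -4.11 (two-sided exact permutation test, p = 0.000466, n = 8 and 8), and -4.01 without ΔEcad tumour 2 (p = 0.000932, exact permutation, n = 8 and 7). In the edgeR fit over all genes the log2 difference of Cdh1 was -3.33 ± 0.79 (SE), which did not pass the threshold after adjustment (adjusted p = 0.500; -3.19 without ΔEcad tumour 2). The counts were summed over the whole gene, so exons inside and outside the floxed part cannot be told apart.

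Epidermal keratinocytes express Cdh1 as well, and the level of the skin marker Krt14, the keratin of basal keratinocytes, is therefore given beside it. ΔEcad tumour 3 had 4363 TPM of Krt14. Ecad tumours 2 and 5, whose Krt14 was closest to this (5701 and 4933 TPM), had 98.1 and 150 TPM of Cdh1, both above the 65.2 TPM of ΔEcad tumour 3. At the other end, Krt14 was listed at 0 in Ecad tumour 7 and at 0.04 TPM in ΔEcad tumours 7 and 8. Here the Ecad tumour held 25.0 TPM of Cdh1 and the ΔEcad tumours held 2.17 and 3.34 TPM. ΔEcad tumour 7 lacked the melanocytic markers (31.8 TPM summed), so of these ΔEcad tumours only tumour 8 had them. With the keratinocyte and melanocytic marker levels as covariates the log2 difference of Cdh1 was -2.96 ± 0.55 (SE; edgeR adjusted p = 0.453). The plot of Cdh1 against Krt14 shows tumours of both groups at low and at high skin content. Keratinocyte marker sums left a gap in the Ecad group between tumour 7 (3.26 TPM) and tumour 8 (380 TPM). ΔEcad tumours 4 (19.5 TPM) and 6 (74.0 TPM) fell into this gap, so no Ecad tumour was close to them in skin content.

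**Figure D1:**
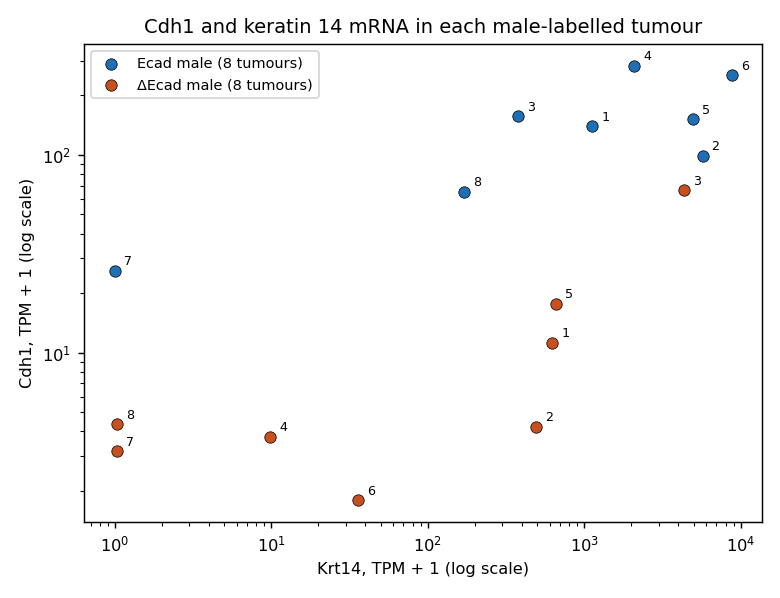
Cdh1 against Krt14 in the 16 male-labelled tumours, both as TPM + 1 on log axes, with the tumour number beside each point (blue, Ecad; orange, ΔEcad). ΔEcad tumours 3, 7 and 8 lie below the Ecad tumours closest to them in Krt14. ΔEcad tumour 3 (65.2 TPM of Cdh1, 4363 TPM of Krt14) lies closest to the Ecad group.

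Across the transcriptome no gene was called in the male-labelled tumours: 0 of 16198 genes (0%) reached an edgeR adjusted p under 0.05 with a log2 fold difference over 1, and the smallest adjusted p was 0.500. The count was also 0 without ΔEcad tumour 2 and with limma, while DESeq2 called 76 genes, described below. At an unadjusted p under 0.05, 972 genes (6.00%) were higher and 595 (3.67%) lower in ΔEcad tumours. Without ΔEcad tumour 2 these were 713 genes (4.33%) and 478 (2.90%). Of the 972 higher genes 608 were also among the 713, and of the 595 lower genes 402 were among the 478. The median log2 difference of all genes tested was 0.12, and the values of gene groups below are read beside it. Genes named below are thus described by their values, and none of them is called unless DESeq2 is named.

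Single tumours were often the extreme ones in these nominal differences. ΔEcad tumour 1 was the highest ΔEcad tumour in 386 of the 972 higher genes (39.7%, against 21.3% of all genes tested) and ΔEcad tumour 2 in 209 of them (21.5%, against 13.6%). Among the 595 lower genes, ΔEcad tumour 3 was the highest ΔEcad tumour, and so the nearest to the Ecad group, in 275 (46.2%, against 8.58% of all genes). Ecad tumour 5 was the highest Ecad tumour in 171 of the 595 (28.7%, against 8.13%).

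In 6 genes the genotypes did not overlap in log2 CPM, counts scaled to library size: 4 were lower (0.0247% of genes tested) and 2 higher in ΔEcad tumours (0.0123%). Without ΔEcad tumour 2 the groups did not overlap in 5 lower (0.0304%) and 2 higher genes (0.0121%), which included all 6. Slc6a7, the proline transporter known from brain synapses (chromosome 18, 60995380 to 61014222), had the largest difference. It had 8.28, 13.2 and 134 TPM in Ecad tumours (lowest, median, highest) and 0.19, 0.86 and 7.76 TPM in ΔEcad tumours. The log2 difference of Slc6a7 was -4.21 ± 0.87 (SE; edgeR adjusted p = 0.500), and -4.09 without ΔEcad tumour 2. Tmc7, a member of the transmembrane channel-like family (chromosome 7, 118535841 to 118584736), had 2.17, 3.28 and 9.25 TPM in Ecad tumours and 0.13, 0.66 and 1.84 TPM in ΔEcad tumours. Every ΔEcad tumour was thus below every Ecad tumour, with a log2 difference of -1.99 ± 0.49 (SE).

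The other 2 lower genes without overlap, Gm10252 and Gm17606, are predicted genes that fall outside the naming rule and were named after their values were seen. Gm10252 lies over Ftl1 on the opposite strand, and Gm17606 over Acin1 and Cdh24. The strand setting of the counting was not stated, so their counts are uncertain. Their log2 differences were -2.34 ± 0.53 for Gm10252 and -1.80 ± 0.44 for Gm17606 (SE). Of the 2 higher genes, Ccdc90b encodes a coiled-coil protein of mitochondria and had 19.4, 24.1 and 28.7 TPM in the Ecad group and 20.9, 39.1 and 66.6 TPM in ΔEcad tumours. The log2 difference of Ccdc90b was 1.05 ± 0.26 (SE), 0.94 without ΔEcad tumour 2. Acp2, a lysosomal acid phosphatase, had 27.6, 34.0 and 46.2 TPM in Ecad tumours and 24.2, 50.2 and 62.7 TPM in ΔEcad tumours, a log2 difference of 0.62 ± 0.16 (SE). For these 2 genes the separation held on the CPM scale, which uses TMM factors, and not on the TPM scale, where Ccdc90b of ΔEcad tumours 6 and 8 and Acp2 of ΔEcad tumours 2, 3 and 8 fell within the Ecad range and Acp2 of ΔEcad tumour 1 fell below it. Gm17606 also overlapped in TPM. Ccdc90b overlaps Ankrd42 and Acp2 overlaps Ddb2, both on the opposite strand.

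The 10 named genes with the smallest p on the lower side held Slc6a7, Cdh1 and 8 others. In each of the 10 all ΔEcad tumours lay below the Ecad median, an order that choosing genes by p in the same tumours favours. The same holds for Nubpl, Acta1, Tfap2a and Chac1 below, which were also named by p. The share of all genes tested with such an order is not given here. In 8 of the 10, ΔEcad tumour 3 was the highest of its group. Dclk2, a microtubule-binding doublecortin-like kinase, had the smallest p of the whole fit (edgeR unadjusted p = 0.000109). It had 9.45, 36.2 and 59.2 TPM in the Ecad group and 4.59, 10.2 and 15.9 TPM in ΔEcad tumours, a log2 difference of -1.60 ± 0.32 (SE). Only the lowest Ecad sample, tumour 8, fell into the ΔEcad range of Dclk2. Cpa6, a secreted carboxypeptidase, had 0.54, 3.36 and 16.4 TPM in Ecad tumours, and was listed at 0 in 2 ΔEcad tumours with a highest value of 0.59 TPM. Its log2 difference was -4.22 ± 0.99 (SE), and other annotated genes overlap Cpa6 on the same strand. Doc2a, a calcium sensor of vesicle release (-2.06 ± 0.43), and Hspa1l, a relative of the heat-shock protein HSP70 (-2.25 ± 0.50), were low in both groups, with medians of 0.57 and 2.04 TPM in Ecad against 0.12 and 0.46 TPM in ΔEcad tumours. The remaining 4, Itga7, Asb5, Popdc2 and Alpk2, are known from striated muscle. Their log2 differences ran from -1.87 for Itga7, the muscle laminin receptor subunit, to -3.63 for Alpk2. The log2 differences without ΔEcad tumour 2 were -1.57 for Dclk2, -4.21 for Cpa6, -1.95 for Doc2a, -2.27 for Hspa1l, -1.89 for Itga7 and -3.56 for Alpk2, and that of Tmc7 was -1.95. For Asb5 and Popdc2 they were -3.23 and -1.86.

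**Figure D2:**
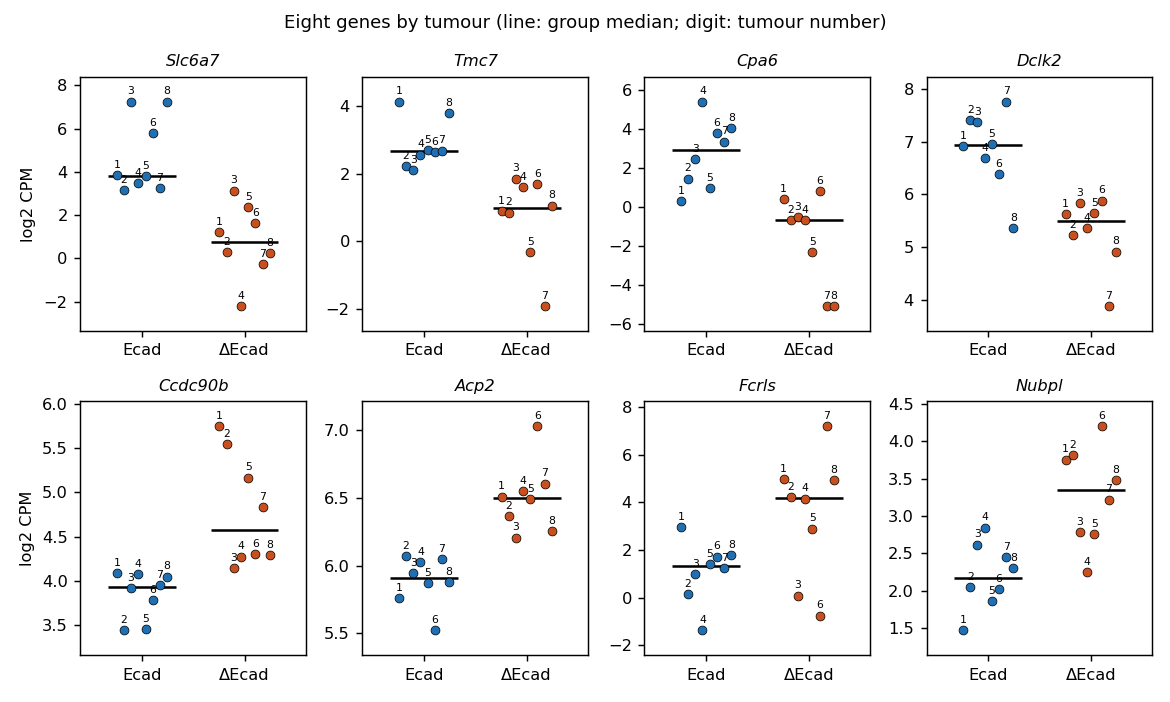
Log2 CPM of 8 named genes in each male-labelled tumour (blue, Ecad; orange, ΔEcad; line, group median; digits, tumour numbers). Slc6a7, Tmc7, Ccdc90b and Acp2 do not overlap between the groups on this scale, whereas Cpa6, Dclk2, Fcrls and Nubpl do.

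On the higher side the 10 genes were Fkbp3, Ccdc90b, Acp2, Cx3cr1, Fcrls, Sfrp4, Gpr39, Ap1s2, Rpl34-ps1 and Nubpl. Fkbp3, a nuclear prolyl isomerase, had 96.1, 113 and 174 TPM in Ecad tumours and 82.7, 217 and 456 TPM in ΔEcad tumours, a log2 difference of 1.29 ± 0.31 (SE). Nubpl, an assembly factor of respiratory complex I, had 1.68, 2.73 and 3.79 TPM in the Ecad group and 3.31, 4.43 and 8.70 TPM in ΔEcad tumours. All 8 ΔEcad tumours were above the Ecad median of Nubpl (log2 difference 1.15 ± 0.32, SE). Ap1s2, a subunit of a clathrin adaptor, had 12.6, 39.8 and 80.2 TPM in Ecad tumours. In ΔEcad tumours Ap1s2 reached 4.25, 124 and 422 TPM, and its lowest value was that of tumour 7 (log2 difference 2.22 ± 0.59, SE). Gpr39, a zinc-sensing receptor, was at most 1.21 TPM in the 16 tumours, with medians of 0.17 TPM in Ecad tumours and 1.18 TPM in ΔEcad (log2 difference 2.19 ± 0.57, SE). Leaving out ΔEcad tumour 2 gave log2 differences of 1.14 for Fkbp3, 0.65 for Acp2, 1.09 for Nubpl, 2.14 for Ap1s2 and 2.03 for Gpr39.

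Cx3cr1, Fcrls and Sfrp4 are genes of macrophages or stroma. Cx3cr1, the fractalkine receptor of monocytes and macrophages, had 0.27, 0.40 and 1.56 TPM in the Ecad group and 0.02, 3.20 and 18.8 TPM in ΔEcad tumours. Fcrls, an Fc receptor-like gene of mouse macrophages, had 0.40, 3.25 and 10.1 TPM in Ecad tumours and 0.57, 17.6 and 208 TPM in ΔEcad tumours. Sfrp4, a secreted Wnt antagonist, had 1.55, 3.74 and 9.51 TPM in the Ecad group and 2.96, 5.48 and 148 TPM in ΔEcad tumours. In each of the 3 the highest TPM was that of ΔEcad tumour 7, the sample without melanocytic markers. In log2 CPM this tumour was the highest ΔEcad tumour in 2 of the 10 genes on the higher side, so not in all of these 3. Without ΔEcad tumour 2 alone the log2 differences were 3.18 for Cx3cr1, 3.57 for Fcrls and 2.67 for Sfrp4. Without ΔEcad tumours 2 and 7 they went from 3.08 to 2.65 for Cx3cr1, from 3.48 to 2.38 for Fcrls and from 3.22 to 1.44 for Sfrp4. Cx3cr1 overlaps other annotated genes on its own strand. Rpl34-ps1 is a pseudogene that can share reads with Rpl34, and it reached 142 TPM in ΔEcad tumour 2. Its log2 difference was 3.40 with that tumour and 1.44 without it.

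The DESeq2 test, with the same thresholds, called 13 genes higher (0.0803%) and 63 lower (0.389%) in male-labelled ΔEcad tumours, and 73 of the 76 had an unadjusted p under 0.05 in edgeR. Cdh1 was one of the 76 (log2 difference -3.32, DESeq2 adjusted p = 0.0053). Of the 7 tested members of the skeletal muscle marker list 0 were called. The 63 lower genes did hold other genes known from striated muscle, such as 2 that were chosen after their values were seen: Des, the intermediate filament desmin of muscle (33.9, 159 and 523 TPM in Ecad tumours, 4.22, 16.7 and 125 TPM in ΔEcad tumours), and Actn3, the actinin of fast fibres (6.47, 89.3 and 443 TPM in Ecad tumours, 0.35, 7.49 and 40.6 TPM in ΔEcad tumours). Without ΔEcad tumour 2, DESeq2 called 32 genes and 29 of them were among the 76. With the level of the skeletal muscle marker list as a covariate, DESeq2 called 5 genes. Slc6a7 was the 1 of these that was among the 76. This covariate is made of muscle genes, so the loss of calls for genes that vary with it follows from its construction and says nothing about the source of the difference.

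Skeletal muscle formed the gene group with the lowest median. All 7 tested members of the marker list were lower in ΔEcad tumours, 6 of them at an unadjusted p under 0.05 (0 of 7 called), with a list median of -2.49 in log2 against 0.12 for all genes. Without ΔEcad tumour 2 the median was -2.56, with 4 members under that p, and without Ecad tumour 5 it was -1.66. Acta1, skeletal muscle actin, had 135, 1177 and 6618 TPM in Ecad tumours and 0.15, 150 and 1006 TPM in ΔEcad tumours. All 8 ΔEcad tumours lay below the Ecad median of Acta1, though the groups overlapped (log2 difference -2.88 ± 1.08, SE, edgeR unadjusted p = 0.0157). Mylpf, a myosin light chain of fast fibres (-2.34), and Myh2, a fast myosin heavy chain (-2.68), had the next smallest p. The summed level of the 8 listed markers ran from 403 to 15126 TPM in the Ecad group and from 2.77 to 2368 TPM in ΔEcad tumours, highest in Ecad tumour 5 and ΔEcad tumour 3. In such bulk samples fewer cells of a type and less RNA per cell cannot be told apart. Whether muscle content set the lower DESeq2 calls was not tested.

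Skin and fat markers lay on the same side, with wider spread. All 10 keratinocyte markers and all 7 adipocyte markers were lower in ΔEcad tumours, with list medians of -1.70 and -1.52, and none reached an unadjusted p under 0.05. These medians were -1.61 and -1.38 without ΔEcad tumour 2. The keratinocyte median was -3.06 without ΔEcad tumour 3, and the adipocyte median was -0.27 without Ecad tumour 5. Trp63, the transcription factor of basal keratinocytes, had medians of 12.7 TPM in Ecad tumours and 0.49 TPM in ΔEcad tumours, and Krt15 had 48.3 and 3.66 TPM. Cidec, a lipid droplet protein, had medians of 65.6 and 6.88 TPM, and Adipoq, adiponectin, 59.3 and 13.5 TPM. The desmosome and tight junction list, whose members are made by epithelia, had a median of -1.48, and 2 of its 15 tested members were higher. With the keratinocyte and melanocytic covariates this list's median was -0.09, that of adipocytes -0.10 and that of skeletal muscle -2.12. The keratinocyte covariate is made of skin genes, and Dsg3 is on both its list and the desmosome and tight junction list. A smaller median for lists that vary with the covariate follows from its construction and says nothing about the source of the difference. Keratinocyte marker sums overlapped widely, from 3.26 to 23575 TPM in the Ecad group and from 2.47 to 15307 TPM in ΔEcad tumours. The plots of list levels by tumour show this spread.

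**Figure D3:**
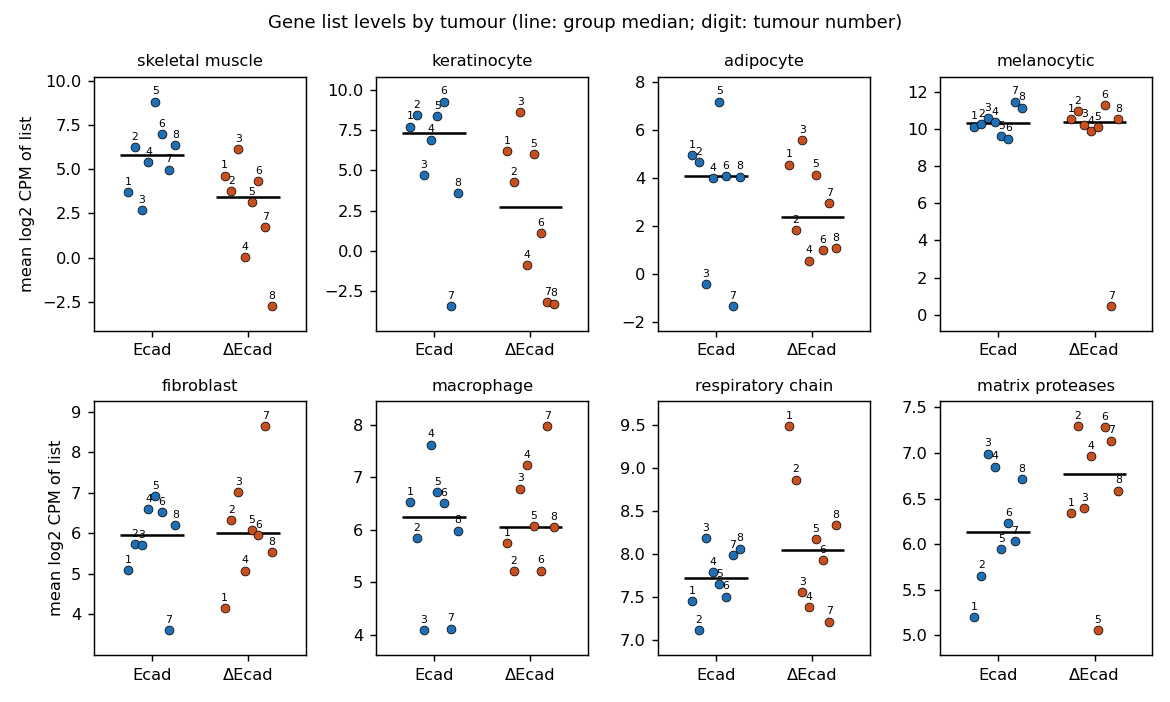
Mean log2 CPM of 8 gene lists in each male-labelled tumour (blue, Ecad; orange, ΔEcad; line, group median; digits, tumour numbers). In skeletal muscle 7 of 8 ΔEcad tumours lie below the Ecad median, and the mean level of all genes tested (not drawn) also does so in 7 of 8. Keratinocyte levels of both groups span most of the axis. ΔEcad tumour 7 lies far below all others in the melanocytic list (0.47 against 9.47 or more).

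Among the 10 classical cadherins, Cdh1 and Cdh15 were lower and Cdh11 higher at an unadjusted p under 0.05. Cdh15 is the cadherin of muscle precursors. It had 0.11, 0.91 and 4.66 TPM in Ecad tumours and 0, 0.10 and 0.46 TPM in ΔEcad tumours (log2 difference -3.07 ± 0.83, SE), and it lay on the same side as the muscle markers. Cdh11, a cadherin of mesenchymal cells, had 0.66, 2.14 and 5.72 TPM in the Ecad group and 0.15, 4.33 and 69.3 TPM in ΔEcad tumours. Its highest value came from ΔEcad tumour 7, and the log2 difference of 2.34 ± 0.78 (SE) was 0.65 without ΔEcad tumours 2 and 7. Cdh2, N-cadherin, had 2.43, 6.65 and 18.0 TPM in Ecad tumours and 2.07, 11.0 and 28.8 TPM in ΔEcad tumours, a log2 difference of 0.78 (unadjusted p = 0.0803). The 10 cadherins had a median of 0.20, whose sign turned with DESeq2 (-0.65), limma (-0.051) and without ΔEcad tumour 6 (-0.63). Their mean level, which includes the deleted gene Cdh1, lay below the Ecad median in 7 of 8 ΔEcad tumours. The mean level of all genes tested also did so in 7 of 8, so this count is no feature of the cadherins. Of the 8 catenins tested, Pkp4, a p120-related catenin, was the 1 under that p (log2 difference 1.29), with 278 TPM in ΔEcad tumour 5 and at most 48.3 TPM in Ecad tumours; without ΔEcad tumour 5 its log2 difference was 0.55. Ctnnb1, β-catenin, had medians of 514 and 567 TPM (log2 difference 0.55, unadjusted p = 0.143).

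Melanocytic identity genes did not separate the genotypes. In melanin synthesis 0 of 13 genes and in pigmentation 0 of 5 genes reached an unadjusted p under 0.05, with list medians of 0.05 and 0.31. Tyr, tyrosinase, had medians of 525 TPM in the Ecad group and 806 TPM in ΔEcad tumours, and Mitf, the master regulator of melanocytes, 60.9 and 67.4 TPM. Among the melanocyte transcription factors Tfap2a, a regulator of neural crest and melanocyte genes, was lower. It had 43.8, 74.2 and 105 TPM in Ecad tumours and 8.23, 29.1 and 70.8 TPM in ΔEcad tumours. All 8 ΔEcad tumours lay below the Ecad median of Tfap2a (log2 difference -0.92 ± 0.33, SE, edgeR unadjusted p = 0.0122), and the difference was -0.78 without ΔEcad tumour 2.

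The neural crest-like signature, one of 8 signatures that the study used, had a median of -0.91. Its mean level lay below the Ecad median in all 8 ΔEcad tumours, and the mean level of all genes tested did so in 7 of 8. Of its 6 genes 2 had an unadjusted p under 0.05, both on the lower side, and 0 without ΔEcad tumour 2. L1cam, a neural adhesion molecule, had 12.5, 45.0 and 96.7 TPM in the Ecad group and 1.03, 10.4 and 56.0 TPM in ΔEcad tumours (log2 difference -1.43 ± 0.62, SE). Slc22a17 had medians of 135 and 61.2 TPM, and Ngfr, the low-affinity nerve growth factor receptor, 18.0 and 4.39 TPM (log2 difference -1.65, unadjusted p = 0.0839). In the Schwann cell list Mal, a myelin protein, was the 1 of 9 under that p (log2 difference -2.08, and -1.04 without Ecad tumour 3). Single tumours moved these values too: Ngfr was -3.16 without ΔEcad tumour 6, Slc22a17 -0.56 without Ecad tumour 1, and the neural crest-like median -0.45 without Ecad tumour 3. The invasive signature had a median of 0.56, of 0.24 without ΔEcad tumour 7 and of 0.0075 with the keratinocyte and melanocytic covariates, with Wnt5a, a non-canonical Wnt ligand, on the higher side. Wnt5a had 0.46, 3.98 and 15.1 TPM in Ecad tumours and 1.25, 15.8 and 52.8 TPM in ΔEcad tumours (log2 difference 2.05 ± 0.78, SE, unadjusted p = 0.0176, and 2.22 without ΔEcad tumour 2).

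In several signalling and metabolic lists most members had values above 0. This is read beside the 9734 of 16198 genes tested (60.1%) that also did in edgeR, and beside limma, where 8037 did. All 13 respiratory chain genes were higher, 4 of them at an unadjusted p under 0.05, with a median of 0.49. Without ΔEcad tumour 2 these were 2 genes and 0.40, and with limma the median was 0.32. Ndufb9, a subunit of complex I, had 428, 522 and 777 TPM in the Ecad group and 441, 715 and 1810 TPM in ΔEcad tumours. The highest values of Ndufb9, Ndufa4 (1087 TPM) and Cox5a (715 TPM) were those of ΔEcad tumour 1, the sample with the fewest mitochondrial transcripts. Without this tumour the list median was 0.23 and the log2 difference of Cox5a fell from 1.10 to 0.32. Of 14 matrix proteases and inhibitors 13 were higher, 4 under that p, with a median of 0.68 (0.52 with limma, 0.57 without ΔEcad tumour 2). Serpine2, a serine protease inhibitor, had 24.8, 30.3 and 81.7 TPM in Ecad tumours and 17.9, 50.7 and 363 TPM in ΔEcad tumours (log2 difference 1.79 ± 0.64, SE). Timp1, an inhibitor of matrix metalloproteases, had medians of 120 and 269 TPM, and Plau, urokinase, 32.8 and 43.6 TPM. The log2 difference of Plau was 1.17, and 0.30 without ΔEcad tumours 2 and 7.

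All 12 TGF-β pathway genes had values above 0, 2 of them under that p, with a median of 0.48 (0.46 without ΔEcad tumour 2). With the keratinocyte and melanocytic covariates the median was 0.12, against 0.11 for all genes in that fit. Ltbp2, which binds the extracellular matrix, and the ligand Tgfb3 had log2 differences of 2.54 and 1.58, and 0.75 and 0.26 without ΔEcad tumours 2 and 7. The highest Ltbp2 value was 134 TPM in ΔEcad tumour 7, and the highest Tgfb3 value was 114 TPM in ΔEcad tumour 2. All 14 MAPK feedback genes, which report signalling below NRAS, had values above 0 with a median of 0.42 (0.48 without ΔEcad tumour 2, 0.29 with limma). The ETS factor Etv1 was the 1 under that p, with a log2 difference of 1.02, although its medians were 38.1 TPM in the Ecad group and 25.2 TPM in ΔEcad tumours. ΔEcad tumour 5, at 215 TPM, held the highest Etv1 value, and the log2 difference was 0.52 without it. The list median was 0.28 without ΔEcad tumour 6. Of 16 cell cycle genes 15 were higher with a median of 0.46, and this median was 0.06 without ΔEcad tumour 2. Rrm2, the small subunit of ribonucleotide reductase, reached 365 TPM in ΔEcad tumour 2. Its log2 difference was 1.46, and -0.04 without that tumour.

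Other transcription factor and stress genes stood alone in their lists. Chac1, a glutathione-degrading enzyme and target of ATF4, had 1.16, 14.3 and 43.7 TPM in Ecad tumours and 0.17, 2.66 and 4.15 TPM in ΔEcad tumours. All 8 ΔEcad tumours were below the Ecad median of Chac1 (log2 difference -2.67 ± 0.70, SE, DESeq2 adjusted p = 0.015), whereas the 13 genes of the ATF4 and unfolded protein list had a median of -0.07. Among YAP and TEAD targets Amotl2 (log2 difference -0.68) and Tead4 (-0.89) were under the unadjusted threshold, with a list median of 0.02. Ier2 was the 1 of 12 immediate early genes (0.91, and 0.31 without ΔEcad tumour 1). Twist2, one of the EMT factors, had a log2 difference of 2.27 with 203 TPM in ΔEcad tumour 7, and it was -0.05 without that tumour. Gbp2, an interferon-induced GTPase, had a log2 difference of -2.54, although its medians were 27.6 TPM in the Ecad group and 34.6 TPM in ΔEcad tumours. Gbp2 reached 2170 TPM in Ecad tumour 4, and the log2 difference was -0.86 without this tumour.

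Stromal and immune markers varied with single tumours, and the highest values of several were in ΔEcad tumour 7. Of 8 fibroblast markers 7 were higher with a median of 0.75, and without ΔEcad tumour 7 the median was 0.01. Fap and Lum were under the unadjusted threshold, and their highest values, 14.9 and 457 TPM, came from ΔEcad tumour 7. Among macrophage markers Adgre1, the F4/80 antigen, had medians of 14.2 and 23.1 TPM (log2 difference 1.26), with a list median of 0.52, and of 0.23 without ΔEcad tumour 7. All 5 tested B and plasma cell markers were higher with a median of 1.95, of -0.079 without ΔEcad tumour 7, of -0.077 with DESeq2 and of -0.26 with limma. Cd79b, part of the B cell receptor, reached 15.9 TPM in ΔEcad tumour 7. Of 9 immune checkpoint genes Cd80 (log2 difference 1.43) and Pdcd1 (2.09) were under the threshold, and the highest Pdcd1 value was 28.0 TPM in ΔEcad tumour 4, without which its log2 difference was 1.05. T cell markers had a median of 0.29, and of 0.0049 without ΔEcad tumour 8, with 0 of 8 genes under that p. Of 7 neutrophil markers 4 had values below 0, with a median of -0.28 that was 0.67 without Ecad tumour 4.

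Of the 49 gene lists examined, 26 had no member at an unadjusted p under 0.05, a level that 9.67% of all genes tested reached. They included hypoxia and glycolysis (median -0.03), cholesterol synthesis (-0.06), p53 targets (0.20), β-catenin targets (-0.12), MHC class I presentation (-0.41) and endothelial markers (0.28). Leaving out single tumours moved these medians: hypoxia and glycolysis ran from -0.19 to 0.20, cholesterol synthesis from -0.17 to 0.13, p53 targets from 0.098 to 0.24, β-catenin targets from -0.67 (without ΔEcad tumour 7) to 0.49 (without Ecad tumour 8), MHC class I from -0.74 (without ΔEcad tumour 8) to 0.43 (without Ecad tumour 4), and endothelial markers from 0.019 (without ΔEcad tumour 8) to 0.50. The plot of list medians gives them beside the median of all genes.

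**Figure D4:**
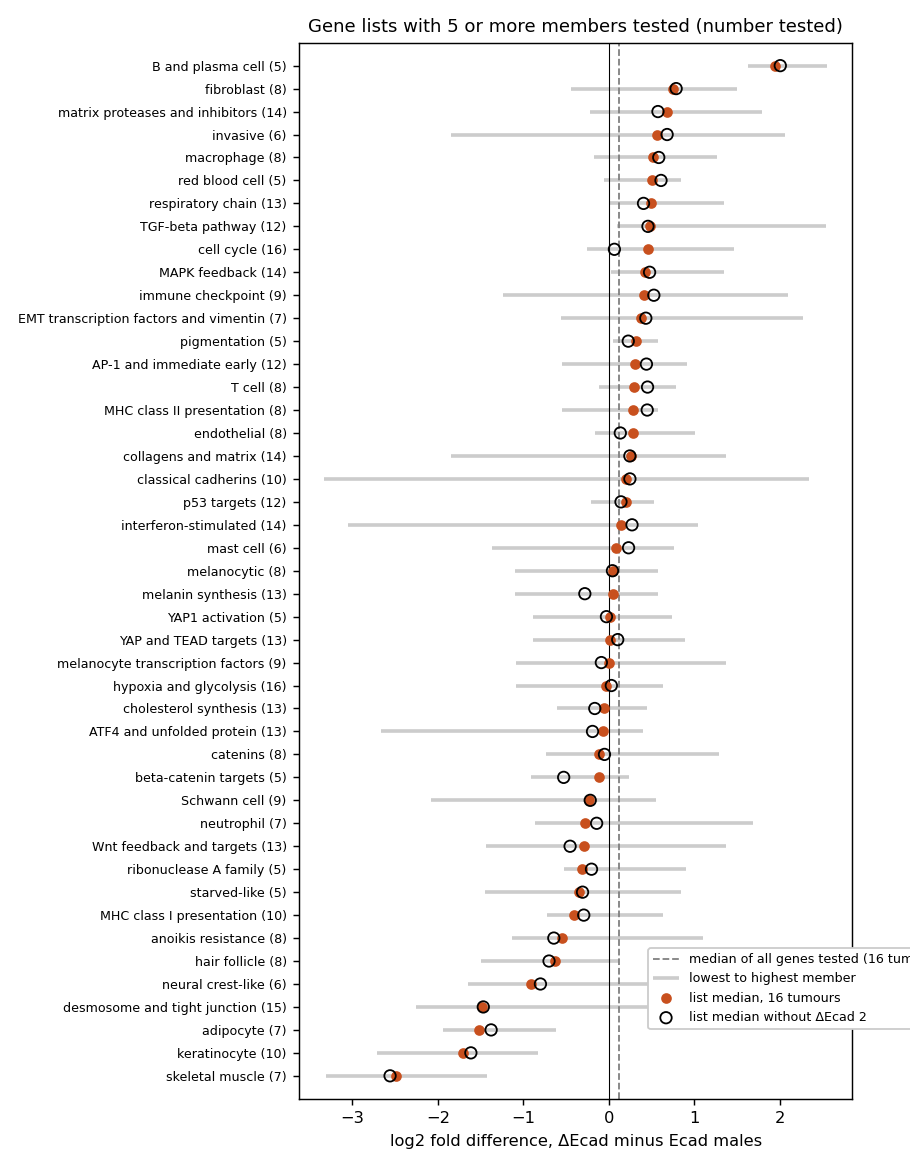
Median log2 difference (ΔEcad minus Ecad, male-labelled tumours) of each gene list with 5 or more tested members; grey bars span its members, orange points use 16 tumours and open circles leave out ΔEcad tumour 2. Skeletal muscle (-2.49) and keratinocyte (-1.70) lie farthest to the left and B and plasma cell (1.95, and -0.079 without ΔEcad tumour 7) farthest to the right of the median of all genes (0.12, dashed line).

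Grpr, the receptor of gastrin-releasing peptide that the study followed, was near the limit of detection in male-labelled tumours (chromosome X, 163513904 to 163549677). It had 0, 0.07 and 0.17 TPM in Ecad tumours, with at most 5 counts in any of them. In ΔEcad tumours Grpr had 0, 0.19 and 5.14 TPM. Tumour 7, the sample without melanocytic markers, held the highest value (167 counts), followed by tumours 4 and 6 with 1.16 and 0.98 TPM. Grpr did not pass the filter on low counts in the 16 tumours. In the fit of all 32 tumours its log2 difference between the male-labelled groups was 3.63 ± 1.09 (SE; edgeR adjusted p = 0.382). This difference was not fitted without ΔEcad tumour 2 or without ΔEcad tumour 7. The ligand Nmb, neuromedin B, had 9.38, 12.7 and 25.95 TPM in Ecad tumours and 8.21, 15.1 and 103 TPM in ΔEcad tumours, with the highest value in tumour 8 (log2 difference 1.52 ± 0.60, SE, unadjusted p = 0.0211, and 0.82 without that tumour). Grp, the gene of gastrin-releasing peptide, did not exceed 0.22 TPM in any male-labelled tumour.

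The genotype difference in male-labelled tumours was set beside that in the 16 female-labelled tumours by an interaction term. No gene was called by edgeR among 17717 tested (1229 higher and 1902 lower at an unadjusted p under 0.05; DESeq2 called 1225), and 0 were called without ΔEcad tumour 2. Of the genes named above, Itga7 had the smallest interaction p. Its log2 difference was -1.87 in male-labelled and 1.31 in female-labelled tumours (interaction -3.19, adjusted p = 0.0509). Popdc2 (-1.90 and 1.92, adjusted p = 0.0526) and Cpa6 (-4.22 and 1.21, adjusted p = 0.0557) had the same pattern of signs. In the other direction Fcrls was 3.48 in male-labelled and -2.01 in female-labelled tumours (adjusted p = 0.0532), Ccdc90b 1.05 and -0.31 (adjusted p = 0.0546), and Acp2 0.62 and -0.31 (adjusted p = 0.0579). None of these passed the threshold. The interactions without ΔEcad tumour 2 were -3.20 for Itga7 (adjusted p = 0.0782), -3.78 for Popdc2 and 5.58 for Fcrls (both 0.0800), -5.42 for Cpa6 (0.0828), 1.24 for Ccdc90b (0.0867) and 0.96 for Acp2 (0.0800). Cdh1 had a log2 difference of -3.33 in male-labelled and 0.00 in female-labelled tumours, an interaction of -3.32 ± 1.27 (SE; adjusted p = 0.154), and of -3.19 without ΔEcad tumour 2 (adjusted p = 0.206). The keratinocyte list median was -1.70 in male-labelled and 5.43 in female-labelled tumours, and that of skeletal muscle -2.49 and 2.42. The difference of these medians between the sexes was not tested. Their part in the interaction was not tested. Grpr, at 3.52 to 263 TPM in female-labelled ΔEcad tumours, had an interaction of -6.56 (adjusted p = 0.0526), and of -6.42 without ΔEcad tumour 2 (adjusted p = 0.0800).

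**Figure D5:**
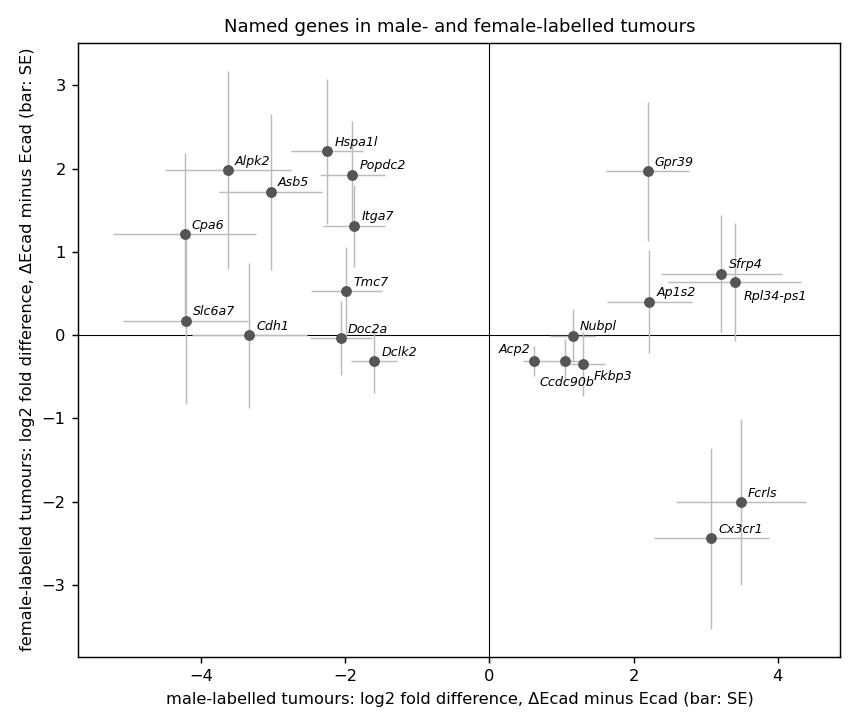
Log2 difference (ΔEcad minus Ecad) of the named genes in male-labelled tumours (horizontal) and female-labelled tumours (vertical), with SE bars. The muscle genes Itga7, Popdc2, Asb5 and Alpk2 are negative in male-labelled and positive in female-labelled tumours, Fcrls and Cx3cr1 are positive in male-labelled and negative in female-labelled tumours, and Cdh1 is -3.33 in male-labelled and 0.00 in female-labelled tumours.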

How the data were processed

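RNA of 16 primary mouse melanomas labelled male was sequenced from poly(A) libraries (stranded kit). Per the methods and submitters' notes, the authors checked reads with FastQC 0.11.5, aligned them with STAR to mm10 (GRCm38.p5) and deposited raw counts per gene for all 32 tumours in one table, and TPM values in another. A batch correction is mentioned where applicable; whether it was used here is not given in the sources used here. Gene symbols and coordinates came from GENCODE M21 (GRCm38); 50376 of 50600 identifiers matched.

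Counts of the 16 tumours were filtered (filterByExpr), scaled (TMM) and tested with edgeR 4.0.16 (robust quasi-likelihood, two-sided, Benjamini-Hochberg over 16198 genes; R 4.3.3). Genes were called at adjusted p under 0.05 and a log2 fold over 1. In simulated data of this comparison, 64 of 100 genes changed by 2 log2 units and 98 of 100 changed by 4 were called. In the tumours Slc6a7, with a log2 difference of -4.21, was not called (edgeR adjusted p = 0.500). Whether the simulated rates hold for the tumours was not tested. TPM gave levels. List levels were mean log2 CPM (prior count 1), and list medians are of the members' log2 differences. Alternatives used DESeq2 1.42.0, limma 3.58.1, other scalings, filters, covariates and left-out tumours. Named genes were Cdh1, Grpr and sex-linked genes, the 10 smallest p in each direction (symbols Gm or Rik left out), 3 per list by p and the most abundant marker per marker list, those without overlap, and those with the smallest interaction p. Members and lists were chosen with earlier results of these data known. Summed counts give no view of single exons.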

Additional observations from a re-analysis of the deposited data

Results flagged for a closer look

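Levels of 244 groups of 8 tumours (mean log2 CPM of a gene list, or log2 CPM of a named gene) were searched for a tumour far from the other 7, which chance alone finds in about 1 of 20 groups, and 32 were found. ΔEcad tumour 7 was far below the other ΔEcad tumours in the melanocytic list (0.47), pigmentation (0.88), melanin synthesis (-1.10), melanocyte transcription factors (1.27), the starved-like signature (-1.74), Dct (1.79), Tyr (-1.91), Mitf (4.54) and Ap1s2 (2.69). It was far above them in Twist2 (7.62), Plau (7.87) and the salivary and mucosal secretory list (-0.93). ΔEcad tumour 2 was far above the others of its group in Xist (5.79) and Rrm2 (8.93), and far below them in Ddx3y, Uty, Kdm5d and Eif2s3y (each -5.09, the level of 0 counts). Ecad tumour 8, which had low Xist, was far below its group in Kdm5d (0.64) and Eif2s3y (2.35).

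ΔEcad tumour 1 was far below its group in YAP and TEAD targets (3.20), collagens and matrix (5.46) and Chac1 (-2.11). ΔEcad tumour 5 was far below its group in matrix proteases and inhibitors (5.05) and far above it in Pkp4 (8.89). ΔEcad tumour 3 was far above its group in the oestrogen receptor activation signature (-0.77), of which 3 of 9 genes were expressed enough to be tested. Ecad tumour 7 was far below its group in the keratinocyte list (-3.41), Krt14 (-5.09), p53 targets (4.08) and the bombesin-type peptides and receptors (-3.80). Gpr39 in Ecad tumour 1 (-5.09) and Alpk2 in Ecad tumour 3 (-2.56) were far below their groups.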

How the results depend on the processing

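The number of genes called was 0 in edgeR under every scaling, filter and covariate tried, in limma and without any single tumour, and differed with DESeq2, which called 76. In fits chosen after seeing the data, DESeq2 called 32 genes without ΔEcad tumour 2, 64 without ΔEcad tumour 7, 33 without both and 5 with the skeletal muscle level as covariate. Cdh1 was called by DESeq2 (-3.32), also without ΔEcad tumour 2 (-3.18), without ΔEcad tumour 7 (-3.15) and without both (-2.98), but not with the muscle covariate (-2.95); leaving out single tumours gave -4.31 to -3.06 in edgeR. The interaction had 0 calls in edgeR and 1225 in DESeq2. The cause of the difference between tools was not tested. At an unadjusted p under 0.05, limma gave 613 higher and 924 lower genes, no filter 1741 and 1526, and leaving out single tumours 608 (without Ecad tumour 2) to 1272 higher and 422 to 963 (without ΔEcad tumour 3) lower. Higher genes were 62.0% of these in the 16 tumours, 49.6% with upper-quartile scaling, 39.9% with limma and 26.5% with the replicate block. Tumour numbers did not pair the samples: same-numbered tumours correlated at -0.51 to 0.28 and 0 of 8 correlated best with their own number; with the replicate block 223 genes were higher, 617 lower and 0 called. Twist2 changed sign with DESeq2 (-0.064), the block (-0.0095) and single tumours left out (-0.053 to 2.47), Rrm2 with DESeq2 (-0.060), without ΔEcad tumours 2 and 7 (-0.11) and single tumours left out (-0.044 to 1.74), Krt14 with marker covariates (0.83), and Dct with limma (-0.43), upper-quartile scaling (-0.015) and single tumours left out (-0.38 to 0.38). Other genes that the naming rule gave also changed sign, and not all were followed under every alternative. Gper1 was -0.065 without ΔEcad tumour 2, whereas all 4 tested steroid receptors were above 0 in the 16 tumours. The 1 tested gene of the salivary and mucosal secretory list went from 0.47 to -0.087 with limma. Depth was similar between tumours; the common dispersion of 0.517 and the low counts of genes such as Grpr and Gpr39 limit precision.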

Other observations

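ΔEcad tumour 5 held the highest value of its group in a set of genes chosen after their values were seen: Dct (24202 TPM), Tyr (1437 TPM), Mitf (233 TPM), Ctnnb1 (1353 TPM), Pkp4 (278 TPM) and Etv1 (215 TPM). The highest Ecad values of the same genes were 37797, 1032, 159, 867, 48.3 and 45.3 TPM. Nmb was highest in ΔEcad tumour 8 (103 TPM) and next in ΔEcad tumour 1 (43.0 TPM), against 25.95 TPM or less in the Ecad tumours.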
